A study of Bos taurus with 8 samples.

Results

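Most microRNAs (miRNAs) are cut from their transcripts by 2 enzymes in turn, Drosha and Dicer, and a small set reaches the cell by another route. Of that set, 5 miRNAs were followed in cattle blood: bta-miR-320a, bta-miR-320b and bta-miR-484, bta-miR-877, and bta-miR-451. They were chosen by name, because work in other mammals describes the first 4 as made without Drosha and bta-miR-451 as made without Dicer. All 5 were among the 534 miRNAs listed in each table, 4 of them had reads, and those 4 were among the 365 miRNAs tested.

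Small RNA was sequenced from 4 healthy lactating Holstein cows, with 1 library from the serum and 1 library from the exosomes isolated from that serum for each cow. No animal was treated. Exosomes are small vesicles that cells release, and since whole serum still holds its exosomes, the comparison of 4 sera libraries with 4 exosome libraries is one of a whole with a fraction of it. The RNA extraction kit (Norgen for sera, Invitrogen for exosomes) and the serum volume differed between the sample types, so sample type and extraction cannot be told apart. The tables hold miRNAs, and the protein markers that define exosomes were not analysed here.

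In the usual route Drosha frees a hairpin in the nucleus and Dicer trims it to the mature miRNA, which an Argonaute protein then carries. In other mammals the miR-320 and miR-484 hairpins are described as starting at the transcription start itself. They are described as carrying the methylguanosine cap of a young transcript and needing Dicer only. MiR-877 is a mirtron, a short intron whose hairpin is freed by splicing and debranching in place of Drosha. The miR-451 hairpin is cut by Drosha but is too short for Dicer, and is instead sliced by Argonaute2 and trimmed. MiR-451 is known as a miRNA of red blood cells, transcribed together with miR-144, whose hairpin follows the usual route. In the RefSeq annotation (ARS-UCD2.0), which was used for neighbouring genes only, MIR451 lies next to MIR144 and MIR877 lies inside ABCF1. MIR484 lies between MARF1 and NDE1. The mature bta-miR-320a has 2 loci, MIR320A-1 beside POLR3D and MIR320A-2 inside RNF180, whose reads cannot be told apart. Whether all of its reads came by the capped route was not tested.

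Values are in RPM, the reads of a miRNA per 1000000 miRNA reads of its library. The reads behind them could be recovered, and each sera library had between 264769 and 590162 miRNA reads and each exosome library between 60682 and 157710. The limit that a count of 0 allows, 3 reads, was therefore between 5.08 and 11.3 RPM for the sera and between 19.0 and 49.4 RPM for the exosomes. The 95% intervals of single libraries are exact binomial (Clopper-Pearson). These limits and intervals cover counting error only. Both libraries of cow 1 stood apart in a muscle miRNA, with 21760.8 RPM of bta-miR-133a in serum and 25279.3 RPM in exosomes against 155.9 to 323.4 RPM in the other cows. Its part in the results below was not tested beyond leaving that cow out. Fold changes are on the log2(RPM + 1) scale, exosomes minus sera, from limma, and the FDR was adjusted over all 365 miRNAs tested.

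Of the 4 miRNAs with reads, only bta-miR-320a passed the limma test. It was lower in exosomes than in sera, at 0.530 times its serum level. The other 3 were not past an FDR of 0.05. Bta-miR-484 had its higher values in exosomes, bta-miR-877 its higher values in sera, and bta-miR-451 had almost the same level in both. The test called 19 of all 365 miRNAs lower in exosomes (5.21%) and 6 higher (1.64%). With the added limit of a log2 fold change over 1 or under -1, it called 16 miRNAs (4.38%), and none of the 4 was among them, nor were they with edgeR or DESeq2. Without the serum library of cow 2, bta-miR-320a passed both limits (log2 fold change of -1.02, limma FDR = 0.0143). At an unadjusted p under 0.05 it alone of the 4 passed in the main limma test, where 22.7% of all 365 miRNAs passed as lower and 3.01% as higher.

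**Figure D1:**
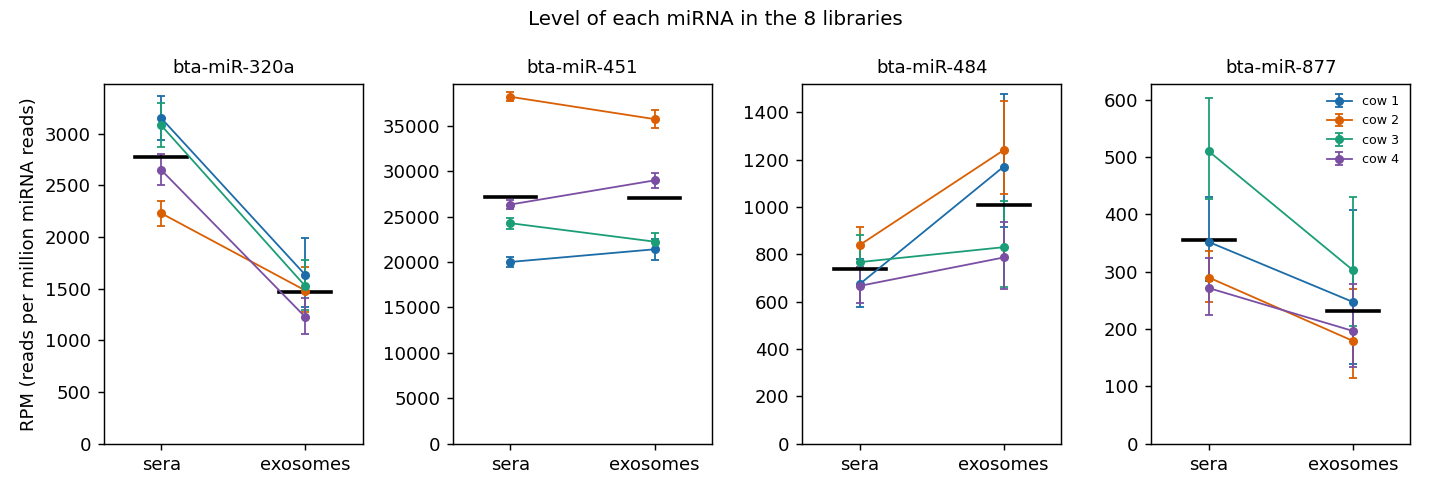
Level of bta-miR-320a, bta-miR-451, bta-miR-484 and bta-miR-877 in RPM on linear axes from 0, in the sera and the exosomes of 4 cows. Each line joins the libraries of 1 cow, error bars are exact 95% binomial intervals of the counts, and the black bar is the mean of 4 libraries. The lines of bta-miR-320a and bta-miR-877 go down in 4 of 4 cows, those of bta-miR-484 go up in 4 of 4, and those of bta-miR-451 lie almost level.

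Bta-miR-320a, the most abundant of the miRNAs here described as made without Drosha, measured 3147.7, 2228.2, 3078.2 and 2646.7 RPM in serum for cows 1 to 4 in order. In their exosomes it measured 1631.5, 1481.5, 1522.9 and 1223.8 RPM. Every exosome library was below every serum library, which also held for 43 of the 365 miRNAs (11.8%). Sera averaged 2775 ± 427 RPM and exosomes 1465 ± 173 RPM (SD, n = 4). The log2 fold change was -0.92 (standard error 0.19, 95% interval -1.33 to -0.51, limma FDR = 0.0111). The exosome level was 0.518, 0.665, 0.495 and 0.462 of the serum level in cows 1 to 4, so the smallest change was in cow 2. An exact permutation test over all 70 assignments of the libraries gave a two-sided p of 0.0286, the smallest that these libraries allow, and flipping the signs of the 4 changes within cows (exact sign-flip test) gave p = 0.125, the lowest value possible with 4 cows. Lower values in 4 of 4 cows were seen for 112 of the 365 miRNAs (30.7%). Between cows bta-miR-320a varied little, with a coefficient of variation of 15.4% in sera and 11.8% in exosomes. Of the 128 miRNAs that had 10 or more reads in all 8 libraries, 28 varied less in sera and 14 less in exosomes, where the medians were 23.3% and 24.4%.

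The call of bta-miR-320a was lost with some scalings and tests and kept with others. It was kept without bta-miR-486 in the denominator of RPM (log2 fold change of -0.71, limma FDR = 0.0272). DESeq2 on recovered reads also kept it (-0.58, FDR = 0.0282). With TMM scaling (trimmed mean of M values) in the quasi-likelihood test of edgeR, run on recovered reads, the log2 fold change was -0.70 and the FDR was 0.0626, where edgeR called 10 miRNAs lower in exosomes (2.74%) and 8 higher (2.19%). With the replicate block added to that fit the FDR was 1.19e-05. Relative to bta-miR-93, the reference of the study's RT-qPCR, the log2 fold change was -0.50 with a limma FDR of 0.567. Bta-miR-93 itself had a log2 fold change of -0.42 (limma FDR = 0.196) on the RPM scale and was lower in exosomes in 4 of 4 cows. With the replicate block its limma FDR was 0.00209, and by edgeR with TMM and the block its FDR was 0.303.

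Bta-miR-320b, a second member of the miR-320 family, was listed at 0 in all 8 libraries. At these depths a count of 0 allows up to 1.91 RPM over the 4 sera libraries together and up to 6.68 RPM over the 4 exosome libraries. Pooled over the sera libraries, bta-miR-320a was at least 1384-fold higher than bta-miR-320b at this limit, and over the exosome libraries at least 213-fold higher. The names of the miR-320 family mark closely related miRNAs, so how the alignment shared reads between them bears on this value and was not tested. No other miRNA had the same values as bta-miR-320a in every library.

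Bta-miR-484, described with the same capped route as miR-320, measured 673.7, 838.8, 766.7 and 666.2 RPM in serum for cows 1 to 4 in order. In exosomes it measured 1170.0, 1239.7, 829.8 and 786.3 RPM, so the groups overlapped: the exosomes of cows 3 and 4 were below the serum of cow 2. Sera averaged 736 ± 82.2 RPM and exosomes 1006 ± 232 RPM (SD, n = 4), with a log2 fold change of 0.43 (standard error 0.22, 95% interval -0.05 to 0.90, limma FDR = 0.241). The exosomes were higher in 4 of 4 cows, at 1.74, 1.48, 1.08 and 1.18 times the serum level of cows 1 to 4 (exact permutation test, p = 0.0857, and exact sign-flip test, p = 0.125). That direction in every cow was rarer than the opposite one, with 15 of 365 miRNAs (4.11%) higher in exosomes in 4 of 4 cows. Without any overlap, 9 miRNAs (2.47%) were higher in exosomes, and bta-miR-484 was not one of them. In the order of log2 fold change over the 128 miRNAs, 9 stood above it.

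The call of bta-miR-484 changed when the cow entered limma as a replicate block, to an FDR of 0.0227, in a fit that called 84 miRNAs lower in exosomes (23.0%) and 12 higher (3.29%). By edgeR with TMM and the block, its log2 fold change was 0.64 and the FDR 0.000538. That fit called 15.1% of all miRNAs lower and 6.58% higher. DESeq2 without the block gave 0.79 and an FDR of 0.0324. Levels in exosomes rested on 71 to 159 reads. The 2 cows with the larger change, cows 1 and 2, also had the higher exosome levels, from which the change is itself computed.

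Bta-miR-877, the mirtron, was the least abundant of the 4, with 351.8, 289.8, 509.9 and 271.4 RPM in serum for cows 1 to 4 in order. In exosomes it measured 247.2, 179.3, 302.6 and 196.6 RPM, from 15, 23, 31 and 31 reads. The 95% interval of the exosome value of cow 1 ran from 138 to 408 RPM, which holds the serum value of the same cow. For cow 4 it ran from 134 to 279 RPM, which also holds the serum value of that cow. The groups overlapped, with the exosomes of cow 3 above the sera of cows 2 and 4. Sera averaged 356 ± 108 RPM and exosomes 231 ± 55.5 RPM (SD, n = 4), with a log2 fold change of -0.60 (standard error 0.30, 95% interval -1.25 to 0.05, limma FDR = 0.228). The exosome level was lower in 4 of 4 cows, at 0.703, 0.619, 0.593 and 0.724 of the serum level (exact permutation test, p = 0.0857, and exact sign-flip test, p = 0.125). That direction in every cow was shared by 112 of the 365 miRNAs (30.7%). Cow 3 had the highest level in both sample types, by a log2 deviation from the mean of 0.56 in sera and 0.42 in exosomes. With a replicate block for the cow the limma FDR was 0.0341, and by edgeR with TMM and the block it was 0.240, so only the first of these changed the call. These fits called 23.0% and 15.1% of all miRNAs lower in exosomes.

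Bta-miR-451, carried in red blood cells, was by far the most abundant, ranked 8 among all miRNAs by its mean in sera and 7 in exosomes. It measured 20012.9, 38198.0, 24277.8 and 26338.8 RPM in serum for cows 1 to 4 in order and 21406.7, 35742.1, 22247.4 and 28996.3 RPM in the exosomes of the same cows. Cow 2 was highest and cow 1 lowest in both sample types, and the groups overlapped over most of their range. Sera averaged 27207 ± 7787 RPM and exosomes 27098 ± 6689 RPM (SD, n = 4), with a log2 fold change of 0.0035 (standard error 0.25, 95% interval -0.53 to 0.54, limma FDR = 0.997).

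Within a cow, the exosome level of bta-miR-451 was 1.07, 0.936, 0.916 and 1.10 of the serum level in cows 1 to 4. The largest change in any cow was 0.14 on the log2 scale, while the same measure was larger for each of the other 127 miRNAs with that many reads. This closeness belongs to the RPM scale. When bta-miR-486 was left out of the denominator, the changes of bta-miR-451 were 0.16, 0.20, 0.13 and 0.35 in cows 1 to 4, all upward, and 23 of 127 miRNAs had a smaller largest change. Relative to bta-miR-93 they were 0.41, 0.42, 0.21 and 0.65, and 63 of 127 had a smaller one.

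**Figure D2:**
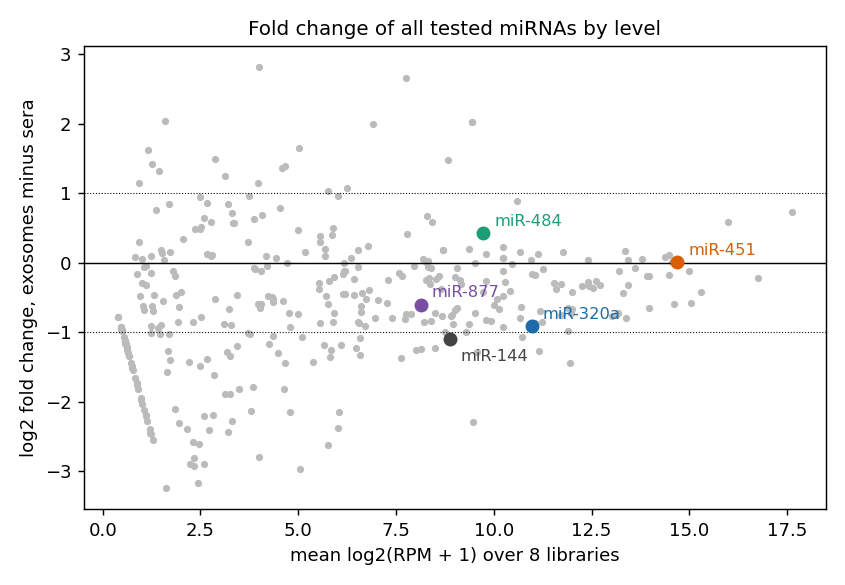
Log2 fold change (exosomes minus sera) against mean log2(RPM + 1) over 8 libraries, for the 365 tested miRNAs. Grey points are the other miRNAs, dotted lines mark log2 fold changes of 1 and -1, and the diagonal streak at low levels holds miRNAs with few reads. Bta-miR-484 (0.43) lies above most miRNAs of its level, and bta-miR-451 (0.0035) lies at about 0, among miRNAs of its level on both sides. Bta-miR-877 (-0.60) and bta-miR-320a (-0.92) lie below 0, and bta-miR-144 (-1.10) under the lower dotted line.

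Bta-miR-144, the neighbour of bta-miR-451 that does need Dicer, did not keep its level. It measured 520.3, 748.9, 706.3 and 818.7 RPM in sera, against 379.0, 265.1, 273.3 and 386.8 RPM in exosomes of cows 1 to 4, with no overlap. Its log2 fold change was -1.10 (standard error 0.25, limma FDR = 0.0149), and relative to bta-miR-93 it was -0.68 with a limma FDR of 0.495. Its exosome values rested on 23 to 61 reads. The level of bta-miR-451 was 38.5, 51.0, 34.4 and 32.2 times that of bta-miR-144 in the sera and 56.5, 135, 81.4 and 75.0 times in the exosomes. The ratio was thus higher in exosomes in 4 of 4 cows. A rise of this kind was not particular to bta-miR-144. In the order of log2 fold change over the 128 miRNAs, 95 stood below bta-miR-451 and 32 above it. On average, the ratio of bta-miR-451 to most of them was therefore higher in exosomes. Bta-miR-144 lay near the lower end of that order, with 6 below it and 121 above. Whether the need for Dicer has a part in this was not tested.

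Mature miRNAs have nearly the same length, so their reads were compared without a length correction. How well the libraries captured each sequence was not tested, so a ratio of 2 miRNAs is one of reads. A ratio of 2 miRNAs of one library does not depend on the denominator of RPM, and 6 such ratios were compared between the sample types with exact two-sided permutation tests. A planned ratio of bta-miR-320a to bta-miR-320b could not be formed. The log2 ratio of miR-451 to miR-144 averaged 5.26 ± 0.29 in sera against 6.36 ± 0.52 in exosomes (SD, n = 4), which is 1.10 higher (exact permutation p = 0.0286, adjusted p = 0.0571 over 6 ratios). The log2 ratio of miR-484 to miR-320a averaged -1.91 ± 0.35 in sera against -0.56 ± 0.26 in exosomes (SD, n = 4), which is 1.34 higher, with the same exact p-values. Bta-miR-320a thus had 2.66 to 4.67 times the RPM of bta-miR-484 in sera and 1.20 to 1.84 times in exosomes, without overlap.

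Against other miRNAs of red blood cells, the ratio of miR-451 moved both ways. To miR-486, the most abundant miRNA here, its log2 ratio averaged -2.57 ± 0.19 in sera against -3.29 ± 0.24 in exosomes (SD, n = 4), a difference of -0.73 with no overlap (exact permutation p = 0.0286, adjusted p = 0.0571). To miR-16b the difference was 0.65, upward in 4 of 4 cows (exact permutation p = 0.0571, adjusted p = 0.0857). The ratio to miR-23a is used as an index of red cell rupture in serum. Its log2 value was 1.75, 3.23, 2.09 and 2.17 in the sera and 2.66, 4.40, 2.95 and 3.19 in the exosomes of cows 1 to 4, highest in cow 2 of both. The difference between sample types was 0.99 (exact permutation p = 0.114, adjusted p = 0.137). The ratio of miR-877 to miR-320a differed by 0.31, upward in 3 of 4 cows (exact permutation p = 0.229, adjusted p = 0.229). None of the 6 was past 0.05 after adjustment, and no exact sign-flip p within cows was under 0.125, the lowest value possible with 4 cows. The smallest exact permutation p that these libraries allow is 0.0286, so a ratio could pass the adjustment only if more of the 6 had reached it.

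**Figure D3:**
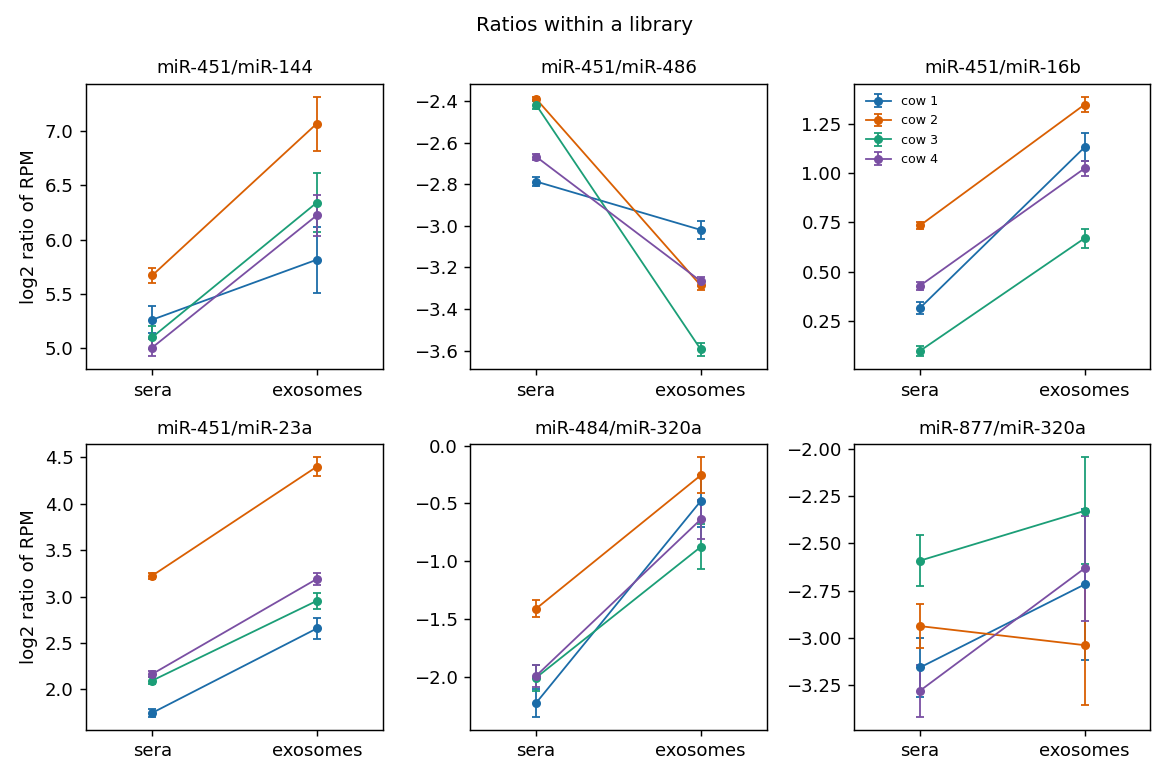
Log2 ratio of RPM within a library for 6 pairs of miRNAs, with 1 line per cow from sera to exosomes and error bars of 1 standard error from counting. The axes differ between panels and do not start at 0. The ratios of miR-451 to miR-144 and of miR-484 to miR-320a are higher in exosomes in 4 of 4 cows, and that of miR-451 to miR-486 is lower in 4 of 4.

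The other markers of red blood cells gave values on both sides of 0. Of the 6 miRNAs listed for these cells, limma called 2 lower in exosomes (bta-miR-16a and bta-miR-144) and none higher, where it called 5.21% of all miRNAs lower and 1.64% higher. At an unadjusted limma p under 0.05, 3 were lower and 2 higher, against 22.7% and 3.01% of all miRNAs. With the replicate block limma called 3 lower and 2 higher (23.0% and 3.29% of all), adding bta-miR-16b below and bta-miR-486 and bta-miR-92a above. DESeq2 without the block called 2 lower and the same 2 higher, bta-miR-486 (log2 fold change of 1.11, FDR = 0.00812) and bta-miR-92a (0.96, FDR = 0.00251), against 4.98% and 6.64% of the 241 miRNAs to which it gave an adjusted p. The call of bta-miR-144 was lost without the serum library of cow 2 (limma FDR = 0.0547) or of cow 4 (limma FDR = 0.0612). The median log2 fold change of the 6 was -0.32, against -0.57 over all 365 tested miRNAs and -0.31 over the 128 with 10 or more reads throughout. The summed level of the 5 other than bta-miR-451 ran from 208561 to 287040 RPM in sera, against 247355 to 455088 RPM in exosomes. Most of it was bta-miR-486, which averaged 158802 RPM in sera and 267558 RPM in exosomes. Bta-miR-92a was also higher in exosomes, while bta-miR-144, bta-miR-16a and bta-miR-16b were lower. None of the 6 was at 0 in any library. The part that red cell RNA, released before or after sampling, has in the level of bta-miR-451 was not tested, and more cells that release RNA cannot be told apart from more RNA released per cell. Of 6 leukocyte and platelet miRNAs none was called in either direction without the block by limma, edgeR with TMM or DESeq2, and 2 were lower at an unadjusted limma p under 0.05. With the replicate block limma called these 2 lower, bta-miR-223 (log2 fold change of -0.86, FDR = 1.66e-10) and bta-miR-146a (-1.38, FDR = 3.86e-06), and edgeR with TMM also bta-miR-150 higher (0.38, FDR = 0.00995). The list had a median of -0.25 and summed levels of 30479 to 39737 RPM in sera, against 31767 to 46159 RPM in exosomes. The liver miRNA bta-miR-122 had 100 reads in sera and 12 in exosomes (log2 fold change of -1.81, limma FDR = 0.359). Of 4 muscle miRNAs 2 were tested and neither was called by limma or edgeR, while DESeq2 gave them no adjusted p, with a median of 0.13, and bta-miR-206 was listed at 0 throughout.

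A short set of other miRNAs known for noncanonical processing, picked by name, was scarcely present. Noncanonical miRNAs outside this set were not looked at. The tables list 5 of a set of mirtrons and miRNAs derived from small nucleolar RNAs: bta-miR-1224, a mirtron, and bta-miR-664a, bta-miR-664b, bta-miR-1248 and bta-miR-1291 of the second kind. Together they had 16 reads in sera and 6 in exosomes, with at most 4 in a library. Of these, 3 were tested by limma and none was called, with or without the block, nor had any an unadjusted p under 0.05. Their median log2 fold change was 0.05. With so few reads a difference was not detectable at this depth, and DESeq2 gave them no adjusted p. The largest was bta-miR-664b, with 9 reads in sera and 5 in exosomes (log2 fold change of 1.49, limma FDR = 0.368). The 5 miRNAs of this report, by contrast, took up 2.42% to 4.16% of a serum library and 2.45% to 3.86% of an exosome library. Bta-miR-451 made up 82.7% to 91.9% of that sum in sera and 87.5% to 92.9% in exosomes. Without it the sum was 0.336% to 0.435% in sera and 0.221% to 0.305% in exosomes.

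A change of scaling shifts all miRNAs of a library nearly alike, so by construction it moves the 4 fold changes together and keeps their order. Over the 128 miRNAs the median log2 fold change was -0.31 with RPM. It was higher by 0.20 without bta-miR-486 in the denominator, by 0.20 with TMM in edgeR, by 0.33 with the size factors of DESeq2 and by 0.42 relative to bta-miR-93. Measured from the median of the same scaling, bta-miR-320a lay at -0.61 and bta-miR-877 at -0.29 with RPM, bta-miR-451 at 0.31 and bta-miR-484 at 0.74. On the scale of the fold change itself, bta-miR-451 ran from 0.0035 to 0.42.

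**Figure D4:**
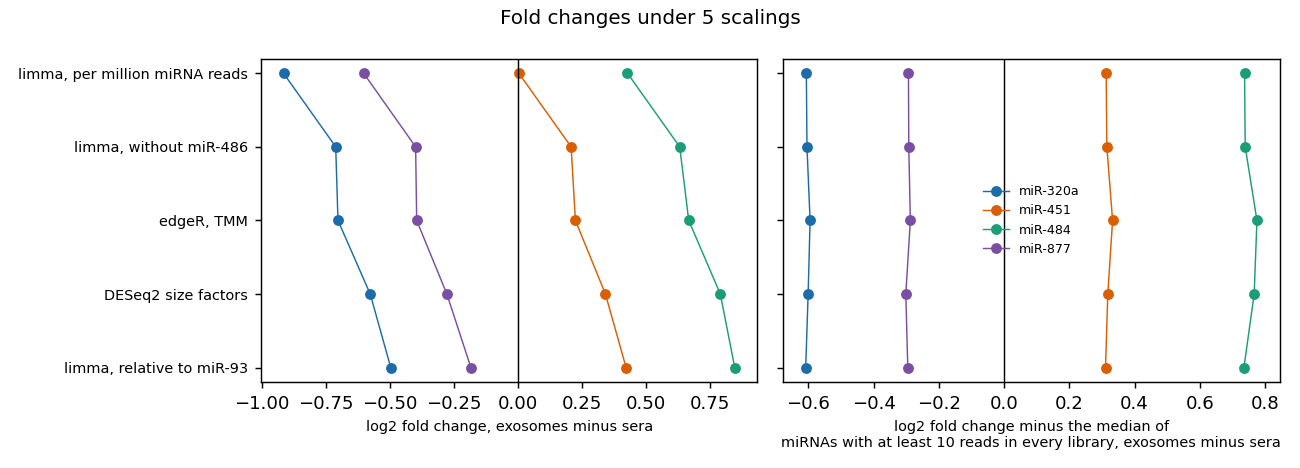
Log2 fold change (exosomes minus sera) of the 4 miRNAs under 5 scalings, as fitted on the left and minus the median of the 128 miRNAs with 10 or more reads throughout on the right. Lines join the scalings of 1 miRNA. On the left the points move right together, with bta-miR-320a from -0.92 to -0.50, and on the right they hardly move, which follows from how a scaling acts on all miRNAs of a library.

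Over the 8 libraries the 4 miRNAs had different closest partners among the 127 other miRNAs with 10 or more reads throughout, by Pearson r of log2(RPM + 1). These values are a description, since pairs of libraries share a cow and sets of 4 share an extraction. Bta-miR-320a was closest to bta-miR-128 (r = 0.967), bta-miR-26b (0.950) and bta-miR-361 (0.941). With the mean of each sample type removed these became 0.739, 0.709 and 0.576. Bta-miR-877 was closest to bta-miR-221 (0.980), bta-miR-421 (0.960) and bta-miR-223 (0.951), a myeloid miRNA, and kept 0.969, 0.964 and 0.909 without the means. Bta-miR-451 was closest to bta-miR-25 (0.869), which became 0.953 without the means, then to bta-miR-150 (0.739) and bta-miR-375 (0.598). Bta-miR-484 was closest to bta-miR-150 (0.777), bta-miR-19b (0.762) and bta-miR-339b (0.696), of which the last became 0.168 without the means. None of the 4 was among the closest partners of another.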

How the data were processed

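The authors filtered reads on quality with CASAVA 1.8 and used sRNAbench to trim them and to align those over 15 nt, by library, to bovine miRNAs of miRBase release 21. They deposited 1 table of RPM values per library. Read counts were recovered from the steps of the RPM values, with 100% of the values whole within rounding (0.05 RPM). The lists and miRNAs were chosen with earlier results of these data known. Cows were matched by the number in the library title and by the study's tables of animals. Over 128 miRNAs the deviations from the mean of the sample type correlated at 0.740 to 0.860 within a cow and -0.244 between cows. The replicates are separate cows. Without the block, p-values rest on the spread between libraries of different cows and do not use the pairing. With the block, and in the sign-flip tests, they rest on the spread of the changes within cows. Counting error is part of both spreads.

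Tested miRNAs exceeded 1 RPM in 2 or more cows of either sample type. The main test was limma 3.58.1 with a trend and Benjamini-Hochberg adjustment over all 365, on log2(RPM + 1), without a block. The design named this test for RPM. EdgeR 4.0.16 and DESeq2 1.42.0 on recovered reads, other pseudocounts, filters and scalings, the replicate block and each library left out were alternatives. Leaving out cow 1 was added after seeing the data. Ratios were tested over all 70 assignments of the libraries. The limma and edgeR steps were checked on simulated data. The text names the 5 miRNAs, their partners in ratios, the listed markers and the 3 closest partners of each. R 4.3.3, Python 3.11.15, SciPy 1.17.1 and pandas 2.3.3 were used.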

Additional observations from a re-analysis of the deposited data

Results flagged for a closer look

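In 2 of the groups of 4 libraries, 1 cow lay far from the other 3, by a rule that chance meets in about 1 of 20 groups (28 groups were looked at). Bta-miR-16b, the partner of bta-miR-451 in a ratio, had 9772.3 RPM in the exosomes of cow 1 against 13989 to 14260 RPM in the other cows. Bta-miR-23a, the partner in the ratio used for red cell rupture, had 4083.6 RPM in the serum of cow 2 against 5684 to 5962 RPM, in the same library where bta-miR-451 was highest. None of the 5 miRNAs with noncanonical processing was itself far from its group by this rule.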

How the results depend on the processing

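Bta-miR-320a was past an FDR of 0.05 in 18 of 20 alternatives and lower in exosomes in all 20. It was not past it with edgeR and TMM (-0.70) and relative to bta-miR-93 (-0.50), and without 1 library the log2 fold change was -1.02 to -0.83. Bta-miR-451 was called in none, and its sign turned with library totals in edgeR (-0.0056) and without cow 1 (-0.028), with -0.14 to 0.18 when 1 library was left out. Bta-miR-484 passed with the replicate block in limma (0.43) and edgeR (0.64) and with DESeq2 (0.79), and was 0.32 to 0.54 without 1 library. Bta-miR-877 passed with the replicate block in limma (-0.60), and was -0.74 to -0.41 without 1 library. With edgeR and TMM, bta-miR-320a passed once the replicate block was added (-0.70). The block changed no other call of the 4 miRNAs.

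Past both thresholds, limma called 5 miRNAs higher in exosomes and 11 in sera. In exosomes it was 8 with edgeR and TMM, 13 with the block added and 13 with DESeq2. In sera it was 29 with the replicate block in limma, 6 with edgeR and TMM, 3 with DESeq2, 6 without bta-miR-486 and 1 relative to bta-miR-93. Without 1 library, the counts were 3 to 5 and 7 to 18. Without the serum library of cow 2 or of cow 4 the count in exosomes was 3. Without the serum library of cow 3 the count in sera was 7, and without its exosome library 18. The cause of these moves was not tested.

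The 6 ratios kept their direction in all 12 alternatives each and none passed an adjusted p of 0.05, which the sign-flip test within cows and the comparison without cow 1 could not have reached. With 15 to 31 reads of bta-miR-877 and 23 to 61 of bta-miR-144 in exosomes, counting error is part of the spread of these values.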
